A study of Mus musculus with 18 samples.

Results

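Embryoid bodies that had been exposed to thalidomide for 72 h were compared with control embryoid bodies of the same time. The comparison rests on 6 of the study's 18 arrays, chosen by their titles: 3 arrays of exposed cultures and 3 arrays of controls, which the labels call biological replicates. All cultures came from C57BL/6 mouse embryonic stem cells that differentiated spontaneously as embryoid bodies, suspended clumps whose cells go on to make early tissues of the embryo. Exposed cultures received 0.25 mM thalidomide (THD) from day 3 of the embryoid body stage. Control cultures received 0.25% DMSO, the vehicle, per the treatment protocol in the labels. The exposed cultures are listed with the same 0.25% DMSO beside the drug. The series design, however, calls the controls unexposed, and the source name of the controls counts hours from embryoid body formation. The study also holds exposed and control arrays at 24 h and 48 h, 3 of each, which enter here for the spread between replicates and for comparisons between times. Total RNA of whole embryoid bodies was hybridised to Affymetrix arrays, and each value below is a log2 signal of 1 gene on 1 array. In such bulk RNA, fewer cells of a type and less RNA per cell cannot be told apart.

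Heart muscle is one of the first tissues to form in embryoid bodies. Its cells build sarcomeres from actin, myosin and titin, and they beat by a cycle in which calcium enters through the L-type channel, opens the ryanodine receptor of the sarcoplasmic reticulum and leaves the cell again through the sodium-calcium exchanger. Cereblon, which picks the substrates of a ubiquitin ligase, is bound by thalidomide and in human cells is then made to mark new proteins such as SALL4 for degradation. The drug caused limb, ear and heart defects in exposed human embryos, whereas mouse cereblon degrades several of these substrates poorly.

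The array groups differed in more than exposure. The titles of all 3 control arrays of 72 h hold a re-analysis tag, which the 3 exposed arrays lack, so the tag and the exposure cannot be told apart at this time. The third replicates lay apart from the other arrays. On the first principal component of the 6 arrays, which held 37.2% of the variance, the exposed arrays scored -3.26, -4.39 and -22.6, and the control arrays 4.04, 6.25 and 19.96. Exposed replicate 3 and control replicate 3 thus stood at opposite ends, and for a part of the results the value without both is given too. Where it is not given, a change may also rest on these arrays. The median SD of a gene within a group was 0.101 at 72 h in exposed and 0.0989 in control arrays, and ran from 0.0955 to 0.115 over all 6 groups. The controls carried the signs of the tissue that the labels name: between 48 h and 72 h the control level of Tnnt2, the troponin T of heart muscle, rose by 2.48 on the log2 scale (limma, adjusted p = 4.63e-05), that of Cdh5, the cadherin of vessel endothelium, by 3.04 (adjusted p = 1.12e-06), and that of Fgf5, a marker of the early epiblast, fell by 2.32 on the same scale (adjusted p = 2.57e-06).

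Exposed and control embryoid bodies of 72 h differed by test in 2 of 22180 genes, 0.00902% of those tested (limma, Benjamini-Hochberg adjusted p under 0.05). Both genes were lower in exposed embryoid bodies, and both encode calcium channels of the heart muscle cell: Ryr2, the ryanodine receptor, and Cacna1c, the pore subunit of the L-type calcium channel. At an adjusted p under 0.1 there were 24 genes, 5 higher and 19 lower, and 2023 genes (9.12%) had an unadjusted p under 0.05, 4.52% higher and 4.6% lower, against 1109 expected by chance. At 24 h and 48 h the same test had called 1521 (6.86%) and 1349 genes (6.08%). Where a gene is said below to have fallen or risen at 24 h or 48 h, it lay lower or higher than in controls of that time. When each time was fitted with its own 6 arrays only, the counts were 121 at 24 h, 163 at 48 h and 0 at 72 h, where the smallest adjusted p was 0.432.

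**Figure D1:**
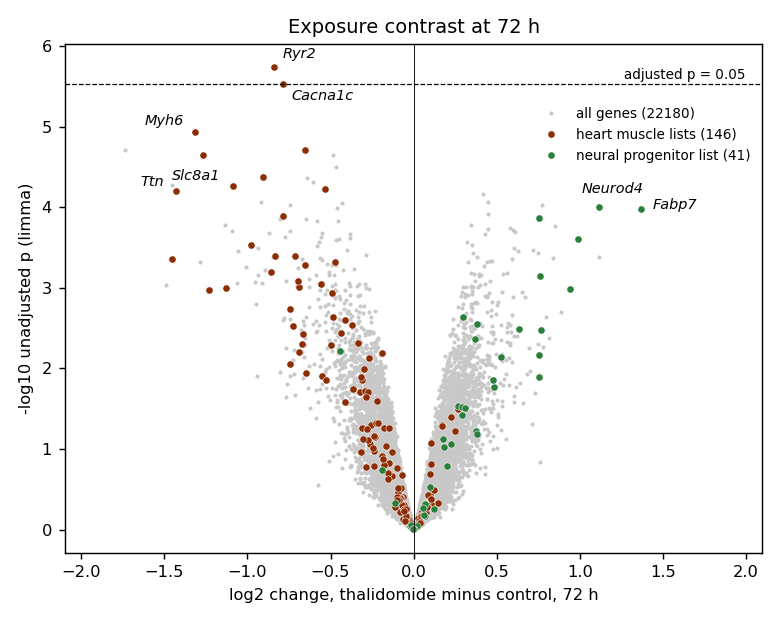
Each point is a gene. The x axis gives the log2 change at 72 h (thalidomide minus control) and the y axis -log10 of the unadjusted limma p. Members of the heart muscle lists are in brown and members of the neural progenitor list in green. The dashed line, labelled adjusted p = 0.05, is drawn at the largest unadjusted p among the genes that passed, which is that of Cacna1c. Ryr2 lies above the line, most heart muscle genes lie left of 0 and most neural progenitor genes right of it.

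Ryr2 had log2 signals of 6.60, 6.65 and 6.25 in exposed embryoid bodies, against 7.20, 7.40 and 7.42 in controls. All exposed arrays lay below all control arrays, the third exposed array was the lowest and the third control array the highest. The change was -0.84 ± 0.12 (SE; adjusted p = 0.0328), a level 1.79-fold lower than in controls. Cacna1c had signals of 6.59, 6.52 and 6.15 in exposed embryoid bodies, against 7.19, 7.14 and 7.29 in controls. Again the groups did not overlap, the third exposed array was the lowest and the third control array the highest. The change was -0.79 ± 0.11 (SE; adjusted p = 0.0328), a level 1.73-fold lower. Without the third arrays the changes were -0.68 for Ryr2 (adjusted p = 0.364) and -0.61 for Cacna1c (adjusted p = 0.376), and neither passed. Neither gene had passed the test earlier: the exposure effect on Ryr2 was -0.09 at 24 h and 0.00 at 48 h, and that on Cacna1c -0.08 and -0.15. In controls both genes rose between 48 h and 72 h, Ryr2 by 1.22 (adjusted p = 9.69e-06) and Cacna1c by 1.29 on the log2 scale (adjusted p = 4.30e-06). Differences between their effects at 72 h and at 48 h were -0.85 (adjusted p = 0.0572) and -0.63 (adjusted p = 0.0968), which did not pass.

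**Figure D2:**
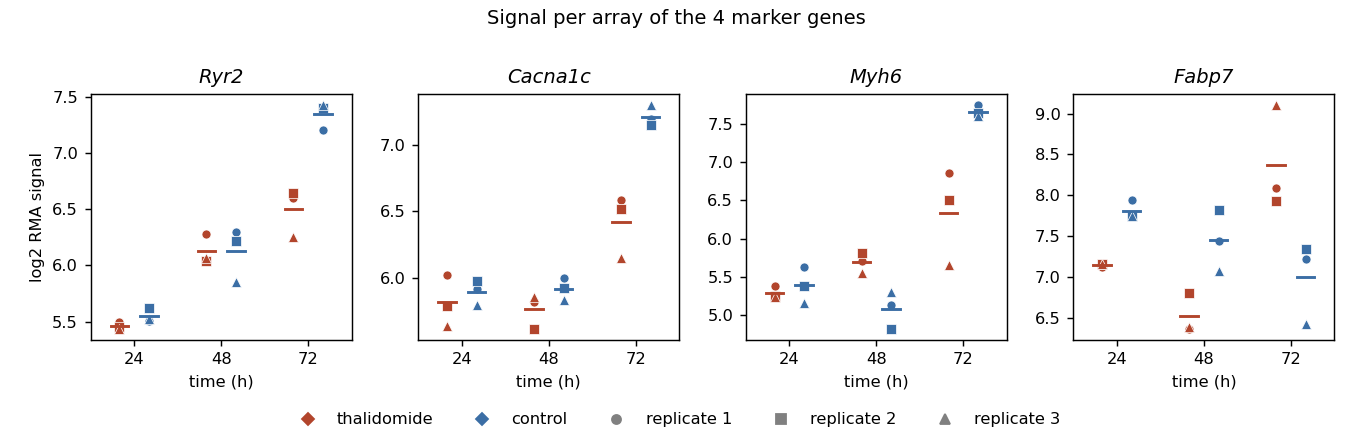
Log2 RMA signal of Ryr2, Cacna1c, Myh6 and Fabp7 on each array (y axis) at 24, 48 and 72 h (x axis), thalidomide in red and control in blue, with a symbol for each replicate number and a bar at the group mean. At 72 h the exposed arrays of Ryr2, Cacna1c and Myh6 lie below all control arrays and those of Fabp7 above them. The third arrays are at both ends for Ryr2, Cacna1c and Fabp7.

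The list of heart calcium handling and ion channel genes had 37 measured members. On 10 of them all 3 exposed arrays lay below all 3 control arrays, and on 0 above, against 7.51% of all genes below and 7.27% above. The median change of the list was -0.10, against 0.00 over all genes. Without the third arrays the count was 17 of 37, where 17.3% of all genes lay so. Slc8a1, the sodium-calcium exchanger, had signals of 6.65, 7.01 and 5.84 in exposed and 7.45, 7.52 and 7.78 in control embryoid bodies, a change of -1.09 ± 0.20 (SE; adjusted p = 0.0924). Cacna1d, the pore subunit of a second L-type channel that paces the sinus node, had 6.12, 6.24 and 5.85 in exposed and 6.50, 6.56 and 6.74 in control embryoid bodies, a change of -0.53 ± 0.10 (SE; adjusted p = 0.0936). In both genes the groups did not overlap, exposed replicate 3 was the lowest array and control replicate 3 the highest. Without the third arrays the changes were -0.66 for Slc8a1 and -0.35 for Cacna1d. Other genes of the calcium cycle had smaller values: Atp2a2, the pump that refills the sarcoplasmic reticulum, had a change of -0.07, the kinase gene Camk2d one of -0.13 and Fkbp1b, which steadies the ryanodine receptor, one of -0.26, none of which passed although their groups did not overlap. Cacna2d1, an accessory subunit of the L-type channel, had overlapping groups and a change of -0.49, which was -0.17 without the third arrays.

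Sarcomere genes showed the widest shift of the heart lists, although none of them passed the test. Of 37 measured members, 18 (48.6%) had all exposed arrays below all control arrays and 2 (5.41%) had them above, against 7.51% and 7.27% of all genes. The median change was -0.29 (-0.22 without the third arrays, where the count was 19 of 37 against 17.3% of all genes). Myh6, the myosin heavy chain of the atrium and of the early heart tube, had signals of 6.86, 6.51 and 5.66 in exposed embryoid bodies, against 7.74, 7.64 and 7.60 in controls. The control arrays lay close together and the exposed ones spread more widely below them, with the third the lowest. The SD of Myh6 at 72 h was 0.62 in exposed and 0.07 in control arrays, which the pooled SE does not separate. The change was -1.32 ± 0.21 (SE; adjusted p = 0.0721), and -1.01 without the third arrays. The effect on Myh6 had been 0.60 at 48 h (adjusted p = 0.101), and the difference between the effects at 72 h and 48 h was -1.92 ± 0.30 (SE; adjusted p = 0.0301), which passed. Ttn, which encodes the giant protein that spans the sarcomere, had 8.11, 8.06 and 6.66 in exposed and 9.05, 8.94 and 9.14 in control embryoid bodies, a change of -1.43 ± 0.27 (SE; adjusted p = 0.0936). Exposed replicate 3 stood far below the other exposed arrays of Ttn, and the change was -0.91 without the third arrays.

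Actc1, the alpha-actin of the heart, had signals of 8.73, 8.28 and 6.95 in exposed embryoid bodies and 9.46, 9.40 and 9.46 in controls. Its change was -1.45 ± 0.33 (SE; adjusted p = 0.130), and -0.93 without the third arrays. Myl7, the atrial light chain, had 8.38, 8.36 and 6.87 in exposed and 9.14, 9.18 and 8.97 in control embryoid bodies, a change of -1.23 ± 0.31 (SE; adjusted p = 0.165). The effect on Myl7 at 48 h had been -1.09 (adjusted p = 0.0482), the 1 sarcomere gene named here that had fallen by then. Myl3, a light chain of ventricle and slow muscle, was the steadiest of the group, with 6.68, 6.62 and 6.45 in exposed and 7.33, 7.10 and 7.29 in control embryoid bodies and a change of -0.65 ± 0.11 (SE; adjusted p = 0.0721; -0.56 without the third arrays). The effect on Myl3 at 24 h had been 0.31, and the difference between the effects at 72 h and 24 h was -0.97 (adjusted p = 0.0150), which passed. Myom1, a protein of the M band that links myosin filaments, had 5.96, 5.94 and 4.85 in exposed and 6.86, 6.64 and 7.05 in control embryoid bodies, a change of -1.27 ± 0.22 (SE; adjusted p = 0.0721). Without the third arrays the change of Myom1 was -0.80.

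The promoters of 4 of these sarcomere genes are shown because each holds a CArG box, the element bound by serum response factor, which with myocardin drives many muscle genes. The fifth, of Ryr2, is shown as the promoter of a gene that passed the test. The sequences are from RefSeq (mouse build GRCm38.p6) and run 5′ to 3′ on the strand of the gene, from 250 bases before the annotated start to 30 bases from the start on. Capitals mark the matches to the 6 motifs searched on both strands. These were the TATA box written as TATAAA, the core bound by MEF2 as TATTTAT, the CArG box, the site of GATA factors as AGATAA, the core bound by NKX2-5 as CACTTAA and the E-box as CAGCTG. The windows are chr2:114052846-114053125 on the minus strand for Actc1, chr11:5898753-5899032 (minus) for Myl7, chr17:71019307-71019586 (plus) for Myom1, chr9:110763428-110763707 (plus) for Myl3 and chr13:12106916-12107195 (minus) for Ryr2.
Actc1: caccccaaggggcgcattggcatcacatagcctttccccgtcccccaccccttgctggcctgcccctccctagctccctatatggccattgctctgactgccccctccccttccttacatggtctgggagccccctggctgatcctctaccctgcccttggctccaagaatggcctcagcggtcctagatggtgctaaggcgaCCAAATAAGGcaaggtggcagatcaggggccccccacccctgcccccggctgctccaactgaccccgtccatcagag
Myl7: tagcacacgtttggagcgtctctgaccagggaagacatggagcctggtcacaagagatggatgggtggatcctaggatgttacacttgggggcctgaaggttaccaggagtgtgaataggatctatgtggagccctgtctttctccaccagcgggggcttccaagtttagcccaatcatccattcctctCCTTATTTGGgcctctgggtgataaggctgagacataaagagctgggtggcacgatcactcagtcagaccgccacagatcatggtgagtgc
Myom1: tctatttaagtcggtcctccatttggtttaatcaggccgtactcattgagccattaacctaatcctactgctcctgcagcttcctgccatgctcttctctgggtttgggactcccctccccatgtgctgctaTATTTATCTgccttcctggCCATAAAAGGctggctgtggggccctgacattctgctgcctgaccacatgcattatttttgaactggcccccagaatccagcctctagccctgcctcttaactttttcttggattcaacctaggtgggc
Myl3: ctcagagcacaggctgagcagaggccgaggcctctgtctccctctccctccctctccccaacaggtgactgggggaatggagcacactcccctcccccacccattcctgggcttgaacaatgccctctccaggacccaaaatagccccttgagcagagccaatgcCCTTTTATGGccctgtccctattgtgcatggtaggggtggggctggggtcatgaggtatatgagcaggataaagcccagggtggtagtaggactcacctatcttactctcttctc
Ryr2: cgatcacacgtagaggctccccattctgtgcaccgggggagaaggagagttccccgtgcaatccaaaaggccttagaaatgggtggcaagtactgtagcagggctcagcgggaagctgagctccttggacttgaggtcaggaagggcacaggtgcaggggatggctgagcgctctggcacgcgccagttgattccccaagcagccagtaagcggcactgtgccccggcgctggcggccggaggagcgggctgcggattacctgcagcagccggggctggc
The CArG box lay at -47 to -38 from the start of Actc1, at -61 to -52 of Myl7, at -99 to -90 of Myom1 and at -85 to -76 of Myl3. The other capitals in Myom1 are TATTTAT at -118 to -112, overlapped by AGATAA on the opposite strand at -115 to -110. No match to the 6 motifs was found in this window of Ryr2, which says only that these letters are absent from it. Of the 37 measured sarcomere genes, 30 had promoter windows (39 windows), and a CArG box lay in 8 windows (20.5%) of 7 genes, against 1.56% of 32851 windows of all genes. Those 7 genes were Acta1, Actc1, Ldb3, Myl3, Myl7, Myom1 and Nebl. In 6 of them all exposed arrays lay below all control arrays, as in 11 of the 23 genes without the box, against 7.51% of all genes. Whether the box goes with the change was not tested. CAGCTG lay in 25.6% of sarcomere windows, against 14.9% of all windows. A match is a description of the sequence, and the 4 genes printed were chosen after their values were seen.

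Tnnt2 had signals of 10.15, 10.09 and 8.70 in exposed and 10.76, 10.74 and 10.82 in control embryoid bodies, a change of -1.13 (adjusted p = 0.164) of which -0.63 was left without the third arrays. The troponin C gene Tnnc1 had a change of -0.86, the myosin binding protein gene Mybpc3 one of -0.79 (adjusted p = 0.107), the slow heavy chain gene Myh7 one of -0.74, the alpha-actinin gene Actn2 one of -0.69 and the tropomyosin gene Tpm1 one of -0.27. In each of these the groups did not overlap. Smyd1, a methyltransferase needed for myosin assembly, had a change of -0.84 (adjusted p = 0.130), and Unc45b, a chaperone of myosin, one of -0.49. The 2 sarcomere genes whose exposed arrays lay above all control arrays were Myom2 (0.22) and Neb (0.10), the nebulin gene of skeletal muscle.

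In controls 20 of the 37 sarcomere genes rose between 48 h and 72 h and 0 fell, against 3.62% and 2.90% of all genes. The same control arrays of 72 h enter the exposure contrast, so these values are only set beside it. The mean log2 signal of the 37 genes was 6.18, 6.17 and 5.72 in exposed and 6.42, 6.45 and 6.53 in control embryoid bodies of 72 h. At 48 h it had been 5.56, 5.55 and 5.54 in exposed and 5.63, 5.57 and 5.50 in control embryoid bodies. The exposed arrays of 72 h thus lay above all arrays of 48 h and below all controls of 72 h, with the third exposed array nearest to the levels of 48 h.

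**Figure D3:**
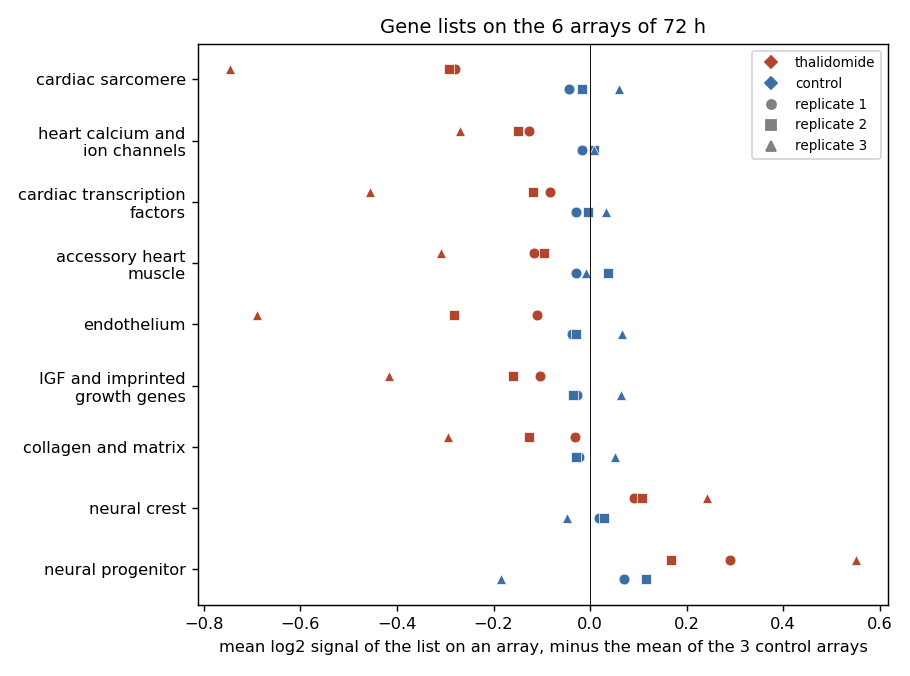
Mean log2 signal of the members of 9 gene lists on each of the 6 arrays of 72 h (x axis, minus the mean of the 3 control arrays), thalidomide in red and control in blue, with a symbol for each replicate number. For the heart, endothelium, growth and matrix lists the exposed arrays lie left of the controls and exposed replicate 3 farthest left, and for the neural progenitor list exposed replicate 3 lies farthest right and control replicate 3 farthest left.

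Of 40 measured accessory heart muscle genes, 9 (22.5%, against 7.51% of all genes) had all exposed arrays below all control arrays and 1 had them above, with a median change of -0.08. Popdc2, a membrane protein that binds cyclic AMP in pacemaker and muscle cells, had signals of 6.85, 6.90 and 6.20 in exposed embryoid bodies, against 7.66, 7.46 and 7.54 in controls. The change was -0.90 ± 0.16 (SE; adjusted p = 0.0924). The effect at 24 h had been 0.35, and the difference between the effects at 72 h and 24 h was -1.25 (adjusted p = 0.0294), which passed. Trim55, a ubiquitin ligase of the sarcomere, had 6.09, 6.04 and 5.30 in exposed and 6.91, 6.77 and 6.66 in control embryoid bodies, a change of -0.98 (adjusted p = 0.122). Asb2, which targets filamins for degradation in muscle, had a change of -0.66 (adjusted p = 0.135) and Bves, a relative of Popdc2, one of -0.49 (adjusted p = 0.171).

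Transcription factors of the heart lay lower in 13 (40.6%) of 32 measured members without overlap and higher in 2 (6.25%), with a median of -0.19. The shares of all genes were 7.51% and 7.27%. Without the third arrays 13 of the 32 lay lower, where 17.3% of all genes did, and the median was -0.05. Tbx20, a T-box factor of the heart field and chambers, had signals of 8.54, 8.61 and 7.76 in exposed and 8.94, 8.99 and 9.08 in control embryoid bodies, a change of -0.70 ± 0.17 (SE; adjusted p = 0.162). Without the third arrays the change of Tbx20 was -0.39. Myocd, the coactivator of serum response factor, had 7.61, 7.55 and 6.67 in exposed and 7.90, 8.11 and 8.06 in control embryoid bodies, a change of -0.75 (adjusted p = 0.209). Mef2c had a change of -0.69 (adjusted p = 0.314), Hand2 one of -0.73 (adjusted p = 0.252), Hand1 one of -0.67 (adjusted p = 0.299), Gata5 one of -0.66 (adjusted p = 0.274) and Tbx5 one of -0.44 (adjusted p = 0.267). In these 5 genes the groups did not overlap, and the change of Hand1 was -0.29 without the third arrays. Exposed replicate 3 was the lowest of the 6 arrays in 68.8% of the members of this list, against 19.7% of all genes. The 2 members that lay higher were Tbx18 (0.27), a factor of the epicardium and sinus node, and Irx2 (0.17).

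Over the 4 heart lists together, 50 of 146 unique members (34.2%) lay lower without overlap and 5 higher. Without the third arrays the count of lower members was 61, and the median of the 146 changes was -0.09, against -0.15 with all arrays. Exposed replicate 3 was the lowest array in 58.9% of the 146 members and control replicate 3 the highest in 37.0%, against 19.7% and 21.8% of all genes. A gene without overlap on all 6 arrays has none on 4 of them either, so this count cannot fall, and it is read against the 17.3% of all genes that lay lower without overlap between 2 and 2 arrays, not against 7.51%.

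**Figure D4:**
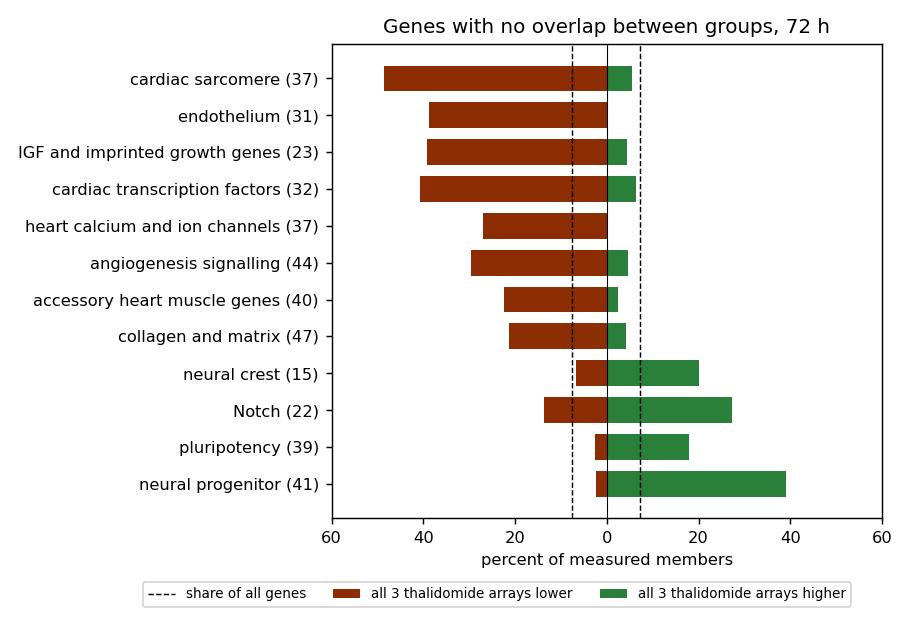
Percent of the measured members of 12 lists (number in brackets) on which all 3 thalidomide arrays lie below (brown, to the left) or above (green, to the right) all 3 control arrays, with the shares of all genes, 7.51% and 7.27%, as dashed lines. The heart, endothelium, growth, angiogenesis, matrix and Notch lists exceed the line to the left, and the neural progenitor, Notch, neural crest and pluripotency lists exceed it to the right.

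Endothelial genes also lay lower, and none passed the test. Of 31 measured members, 12 (38.7%) lay lower without overlap and 0 higher, against 7.51% and 7.27% of all genes, and the median change was -0.35. Without the third arrays 13 of the 31 lay lower, where 17.3% of all genes did, and the median was -0.17. Cdh5 had signals of 8.76, 8.37 and 7.46 in exposed embryoid bodies, against 9.14, 9.22 and 9.51 in controls. The change was -1.09 ± 0.23 (SE; adjusted p = 0.109), and -0.61 without the third arrays. Plvap, which forms the diaphragms of capillary pores, had a change of -0.91 (adjusted p = 0.162), the angiopoietin receptor gene Tek one of -0.77 (adjusted p = 0.305), the VEGF receptor gene Kdr one of -0.47 (adjusted p = 0.426) and Mmrn2, a matrix protein of vessels, one of -0.57 (adjusted p = 0.116). The early factor Etv2, which starts the endothelial program, had a change of 0.22. Endothelial genes had risen in the controls of the same interval, 21 of 31 members, with 1 that fell. Stab1, a scavenger receptor of endothelium and macrophages, had 6.15, 6.12 and 5.74 in exposed and 6.51, 6.54 and 6.90 in control embryoid bodies, a change of -0.64 ± 0.12 (SE; adjusted p = 0.0924).

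Of 44 genes of angiogenesis signalling, some of which are also in the endothelial list, 13 (29.5%) lay lower without overlap and 2 (4.55%) higher. The shares of all genes were 7.51% and 7.27%, and the median of the list was -0.14. Angpt1, the ligand of Tek, had signals of 6.14, 5.87 and 5.22 in exposed and 6.47, 6.48 and 7.08 in control embryoid bodies, a change of -0.93 ± 0.21 (SE; adjusted p = 0.126), which was -0.47 without the third arrays. The chemokine gene Cxcl12 had a change of -0.58, the semaphorin and VEGF coreceptor gene Nrp1 one of -0.65 and Vegfa itself one of -0.13. Of 17 measured primitive blood genes 1 (5.88%) lay lower and 1 (5.88%) higher, with a median of 0.02.

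Acta2, the actin of vascular smooth muscle that early heart muscle also expresses, had signals of 10.41, 10.09 and 8.60 in exposed and 10.88, 10.94 and 11.14 in control embryoid bodies, a change of -1.28 ± 0.30 (SE; adjusted p = 0.131). Without the third arrays the change of Acta2 was -0.66. Of 18 measured members of the smooth muscle list 6 (33.3%) lay lower without overlap and 4 (22.2%) higher, against 7.51% and 7.27% of all genes. Among those higher were Myh11 (0.22), the heavy chain that defines smooth muscle, and Mylk (0.54), the kinase of its light chain. Genes of collagen and matrix lay lower in 10 (21.3%) of 47 members and higher in 2 (4.26%), against 7.51% and 7.27% of all genes, with a median of -0.09. Col3a1, a fibrillar collagen, had 7.40, 7.10 and 6.19 in exposed and 7.60, 7.83 and 8.29 in control embryoid bodies, a change of -1.01 ± 0.24 (SE; adjusted p = 0.138). Without the third arrays the change of Col3a1 was -0.47. Postn, a matrix protein of heart valves, had a change of -1.49 (adjusted p = 0.162; -0.70 without the third arrays), whereas the basement membrane collagen gene Col4a2 had one of 0.38.

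Growth genes of the imprinted and insulin-like growth factor group lay lower in 9 (39.1%) of 23 measured members without overlap and higher in 1 (4.35%). The shares of all genes were 7.51% and 7.27%, and the median of the list was -0.19. Without the third arrays 10 of the 23 lay lower, where 17.3% of all genes did, and the median was -0.07. Dlk1, a paternally expressed Notch-like ligand, had signals of 7.63, 7.38 and 6.89 in exposed embryoid bodies, against 7.97, 8.23 and 8.24 in controls. The change was -0.85 ± 0.19 (SE; adjusted p = 0.130). Cdkn1c, the growth-restraining cell cycle inhibitor, had a change of -0.52 (adjusted p = 0.305), Igf2r, which clears insulin-like growth factor 2, one of -0.36 (adjusted p = 0.328) and Zim1 one of -1.06 (adjusted p = 0.162). Igfbp2 and Igfbp3, which bind insulin-like growth factors, had fallen earlier, with changes of -0.46 and -0.64 at 24 h and -0.44 and -0.36 at 48 h, each past the test. At 72 h their changes were -0.23 and -0.33, which did not pass.

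Of 41 measured members of the neural progenitor list, 16 (39.0%) had all exposed arrays above all control arrays and 1 (2.44%) had them below. The shares of all genes were 7.27% and 7.51%, and the median change of the list was 0.29. Without the third arrays no further member was added to the 16, while the share of all genes grew to 17.9%, and the median was 0.09. Fabp7, the fatty acid binding protein of radial glia, had signals of 8.09, 7.93 and 9.10 in exposed embryoid bodies, against 7.22, 7.34 and 6.43 in controls. The groups did not overlap, and the third arrays were the highest of the exposed and the lowest of the control arrays. The change was 1.37 ± 0.27 (SE; adjusted p = 0.0961), the largest positive value of all 22180 genes, and 0.72 without the third arrays. The effect on Fabp7 had been -0.66 at 24 h and -0.92 at 48 h (adjusted p = 0.0532), and the effect at 72 h exceeded them by 2.03 (adjusted p = 0.0312) and 2.29 (adjusted p = 0.0303), both of which passed.

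Neurod4, a factor of newborn neurons, had signals of 5.57, 5.65 and 6.21 in exposed and 4.89, 4.85 and 4.33 in control embryoid bodies, a change of 1.12 ± 0.22 (SE; adjusted p = 0.0961). Without the third arrays the change of Neurod4 was 0.74. Olig2, a factor of motor neuron and oligodendrocyte progenitors, had 6.89, 7.11 and 7.15 in exposed and 6.34, 6.44 and 5.39 in control embryoid bodies, a change of 0.99 ± 0.21 (SE; adjusted p = 0.113). The difference between the effects on Olig2 at 72 h and 24 h was 1.46 (adjusted p = 0.0439), which passed. Sox1, the earliest factor of the neural plate, had a change of 0.94 (adjusted p = 0.165), the neuronal tubulin gene Tubb3 one of 0.76 (adjusted p = 0.263), doublecortin (Dcx) one of 0.75 (adjusted p = 0.107) and Sox2 one of 0.48 (adjusted p = 0.381). In each of these 4 the groups did not overlap. Further factors of neurons stood among the 24 genes with an adjusted p under 0.1: Nhlh1 at 0.77 and Myt1l at 0.42, with Pcdh8, a protocadherin, at 0.45. These 3 are not in the neural list and were named after their values were seen.

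Exposed replicate 3 was the highest array in 65.9% of neural members and control replicate 3 the lowest in 56.1%, against 19.6% and 21.0% of all genes. The mean signal of the list was 6.51, 6.39 and 6.77 in exposed and 6.29, 6.34 and 6.04 in control embryoid bodies. Replicates 1 and 2 of the exposed cultures stood slightly above those of controls, and the third arrays were the farthest apart. Neural crest genes lay higher without overlap in 3 (20%) of 15 members and lower in 1 (6.67%), against 7.27% and 7.51% of all genes. Pax3 had a change of 0.59 (adjusted p = 0.267), which was 0.21 without the third arrays. Snai2, a factor of migrating cells that heart cushion and mesenchyme also use, had one of -0.49. Of 22 measured Notch pathway genes, 6 (27.3%) lay higher without overlap and 3 (13.6%) lower, against the same shares of all genes. Dll1, a ligand of neural and somite cells, had a change of 0.60 (adjusted p = 0.126), and Hes5, a neural target, one of 0.75 (adjusted p = 0.317), while the vessel and heart genes Dll4 and Hey2 had changes of -0.39 (adjusted p = 0.268) and -0.41 (adjusted p = 0.236).

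Markers of pluripotency and of other germ layers showed no call. Pluripotency genes lay higher in 7 (17.9%) of 39 members without overlap and lower in 1 (2.56%), against 7.27% and 7.51% of all genes, with a median of 0.11. Without the third arrays the count of higher members was still 7, where 17.9% of all genes lay so, and the median was 0.03. Sox2 and Zic2 were among the 7 and are also in the neural list. Pou5f1, the central pluripotency factor, had 5.95, 5.90 and 5.81 in exposed and 5.79, 5.72 and 5.81 in control embryoid bodies and a change of 0.11 (adjusted p = 0.797). Tdgf1, a Nodal coreceptor of epiblast and early heart, had 6.90, 7.14 and 6.15 in exposed and 7.56, 7.74 and 7.57 in control embryoid bodies, a change of -0.89 (adjusted p = 0.147). Definitive endoderm genes lay lower in 2 (8%) and higher in 3 (12%) of 25 members, and Hox genes lower in 1 (2.78%) and higher in 3 (8.33%) of 36, against 7.51% and 7.27% of all genes. Limb genes lay lower in 7 (16.7%) and higher in 5 (11.9%) of 42, with Sp8, a factor of the limb ridge and of neural tissue, at 0.46 (adjusted p = 0.162) and Tbx5 of forelimb and heart at -0.44.

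The target of the drug was measured as well. Crbn, which encodes cereblon, had signals of 8.23, 8.02 and 8.18 in exposed embryoid bodies, against 8.32, 8.23 and 8.19 in controls. The groups overlapped, and the change was -0.11 ± 0.09 (SE; adjusted p = 0.824), after -0.38 at 24 h (adjusted p = 0.0215) and -0.31 at 48 h (adjusted p = 0.0562). Sall4 had 9.58, 9.49 and 9.62 in exposed and 9.46, 9.56 and 9.45 in control embryoid bodies, with a change of 0.07 ± 0.07 (SE; adjusted p = 0.850) that turned to -0.13 when its probe sets were averaged. The arrays measure transcripts and not proteins. In the list of the cereblon ligase and its known substrates 3 of 38 members (7.89%) lay lower without overlap and 2 (5.26%) higher, close to the shares of all genes, with a median of 0.01.

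The 4 genes described next were named because their effect at 72 h differed by test from the earlier ones, so their lack of a difference at 72 h is a description. Sdhc, a membrane subunit of succinate dehydrogenase, had fallen early, with changes of -1.27 at 24 h (adjusted p = 8.21e-07) and -1.36 at 48 h (adjusted p = 2.88e-07). At 72 h it had signals of 8.74, 8.55 and 8.41 in exposed embryoid bodies, against 8.58, 8.75 and 8.67 in controls. The groups overlapped, the change was -0.10 ± 0.08 (SE; adjusted p = 0.803), and the effect differed from that at 48 h by 1.26 (adjusted p = 0.000166) and from that at 24 h by 1.17 (adjusted p = 0.000477). The histone gene H2bc12 had 10.27, 10.20 and 10.23 in exposed and 10.22, 10.14 and 9.80 in control embryoid bodies, a change of 0.18 (adjusted p = 0.664) after -1.07 and -1.17 at 24 h and 48 h. Bod1, which helps chromosomes attach to the spindle, had 9.47, 9.25 and 9.27 in exposed and 9.41, 9.23 and 9.29 in control embryoid bodies, a change of 0.02 (adjusted p = 0.982) after -1.01 and -0.90. Dexi, which had risen by 1.01 and 0.85 on the log2 scale, had 7.93, 7.80 and 7.71 in exposed and 7.80, 7.86 and 7.76 in control embryoid bodies, a change of 0.00 (adjusted p = 0.997). For H2bc12, Bod1 and Dexi the differences from both earlier effects passed the test, with adjusted p-values from 0.000716 to 0.0175.

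**Figure D5:**
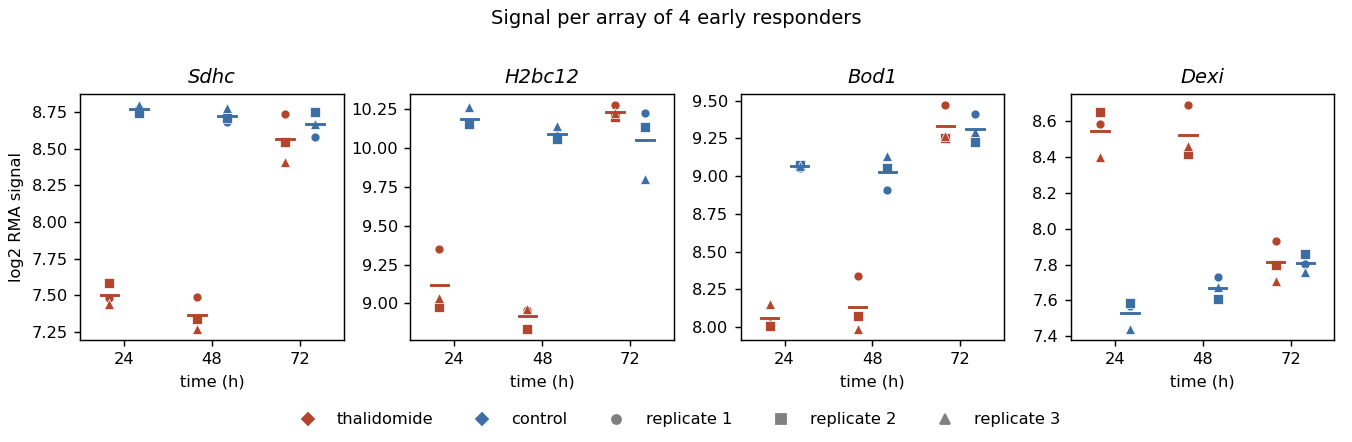
Log2 RMA signal of Sdhc, H2bc12, Bod1 and Dexi on each array (y axis) at 24, 48 and 72 h (x axis), thalidomide in red and control in blue, with a symbol for each replicate number and a bar at the group mean. At 24 h and 48 h the exposed and control arrays lie far apart, and at 72 h they overlap in all 4 genes.

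Other early responders kept a difference without overlap at 72 h. Snora44, a small nucleolar RNA, had changes of 1.07 at 24 h, 0.76 at 48 h and 0.33 at 72 h. Mrpl34, a protein of the mitochondrial ribosome, had changes of -0.86, -0.85 and -0.26, and Usp18, a protease of the interferon response, had changes of -0.55, -0.48 and -0.23. All 3 had passed the test at both earlier times, and none passed at 72 h. In all, 501 genes had fallen by test at both 24 h and 48 h, with median changes of -0.40 and -0.38, and at 72 h their median change was -0.04, with quartiles of -0.09 and 0.02. Of these, 69 (13.8%) lay lower without overlap at 72 h and 11 (2.20%) higher, against 7.51% and 7.27% of all genes, and 0 were called by limma, while 33 had an unadjusted p under 0.05 in the same direction. Without the third arrays the median was -0.02, and 118 (23.6%) lay lower and 46 (9.18%) higher, against 17.3% and 17.9% of all genes. The 66 genes that had risen at both times, with medians of 0.35 and 0.34, had a median of 0.01 at 72 h, with 10 higher (15.2%, against 7.27% of all genes) and 6 lower (9.09%, against 7.51%) without overlap and 0 called (7 with an unadjusted p under 0.05 in the same direction). Without the third arrays the median of these 66 was -0.005. Then 12 (18.2%) lay higher and 14 (21.2%) lower, against 17.9% and 17.3% of all genes. Neither Ryr2 nor Cacna1c had been called in the same direction at 24 h or 48 h. The effect at 72 h differed by test from that at 48 h in 21 genes (14 higher and 7 lower, 0.0947% of those tested) and from that at 24 h in 110 genes (85 higher and 25 lower, 0.496%). These counts were 2 and 5 with only the arrays compared, 2 and 8 without control replicate 3, and 365 and 640 among genes whose signal reached the median. Cyclic loess gave 15 higher and 17 lower genes against 48 h, and 38 higher and 28 lower against 24 h. At 48 h the re-analysis tag was split between the groups as at 72 h, and at 24 h all 6 arrays carried it.

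Among the genes whose effect differed most between times were both early responders and late genes. Cbr1, a carbonyl reductase, and Srrd had fallen at 24 h, with changes of -0.65 and -0.69, and had values of 0.03 and 0.07 at 72 h. Stx6, a syntaxin of the Golgi network, had risen by 0.59 at 24 h and had a change of -0.04 at 72 h, and Got1, a transaminase of the aspartate shuttle, had risen by 0.49 at 24 h and 0.59 at 48 h and had one of -0.01. Tnfrsf10b, a death receptor gene and p53 target, had fallen at 48 h, with a change of -0.40, and at 72 h it had 8.40, 8.40 and 8.45 in exposed and 7.97, 8.14 and 7.998 in control embryoid bodies, a change of 0.38 (adjusted p = 0.130). Its groups did not overlap at 72 h, the level in exposed arrays varied little, and the effect differed from that at 48 h by 0.78 (adjusted p = 0.0301).

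Several genes outside the lists stood next to the threshold. Klk1, a kallikrein protease, had the most negative change of all genes, with signals of 4.06, 3.21 and 3.15 in exposed embryoid bodies, against 5.10, 5.86 and 4.67 in controls. The change was -1.74 ± 0.29 (SE; adjusted p = 0.0721), and -1.85 without the third arrays. The signal of Klk1 was low and spread widely, with SDs of 0.51 in exposed and 0.60 in control arrays of 72 h. The medians of the 72 h arrays ran from 5.38 to 5.45. Svil, an actin-binding protein of muscle membranes, had 6.85, 6.84 and 6.60 in exposed and 7.27, 7.18 and 7.28 in control embryoid bodies, a change of -0.48 ± 0.08 (SE; adjusted p = 0.0721), and its effect differed by test from those at 48 h (-0.68) and 24 h (-0.65). Ccdc141 had 7.64, 7.82 and 6.49 in exposed and 8.76, 8.67 and 8.87 in control embryoid bodies, a change of -1.45 ± 0.27 (SE; adjusted p = 0.0924). Dpf3, a chromatin factor of heart and muscle, had a change of -0.43, Grb14, an adaptor of the insulin receptor, one of -0.47, Gyg, which primes glycogen synthesis, one of -0.46, Mpped2 one of -0.61 and Sh3bgr one of -0.75. In all 8 of these genes the groups did not overlap, but they were named for small p-values from the same arrays, which favours this. The predicted gene Gm10400, also among the 24 genes with an adjusted p under 0.1, had a change of -0.92.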

How the data were processed

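The authors deposited log2 signals for each probe set. Per the submitters' processing notes they used RMA and Affymetrix Expression Console 1.3. RMA corrects background, quantile-normalizes the arrays and gives no detection call, so a dim gene still has a value, and levels of different genes are not compared. For the genome build behind the array annotation, the sources used here name none. Of 41345 probe sets, 25335 were listed in the annotation used, 23521 with 1 symbol and 1814 with several, which were left out. They gave 22180 genes, of which 1082 had several probe sets and took the probe set whose mean over all 18 arrays was highest.

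All 18 arrays were fitted in limma 3.58.1 (R 4.3.3) with a mean for each group of 3, giving 12 residual and 4.35 prior degrees of freedom, and p-values were adjusted by Benjamini-Hochberg over all genes with a threshold of 0.05. The procedure was tested on simulated data. The number of arrays limits the precision. Nothing in the labels beyond the word biological says how the replicate cultures were separated. Groups were said not to overlap where all 3 exposed arrays lay on one side of all 3 control arrays.

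The gene lists and members were chosen with earlier results of these data known. The naming rule took up to 12 genes a direction past the threshold, up to 4 passing members of each list or else the member with the smallest p, the 8 genes with the smallest adjusted p of each difference between times, and Crbn, Sall4, Ryr2, Cacna1c, Myh6 and Fabp7. Other genes, and the promoters, were chosen after their values were seen. The promoter clause of the rule, for sarcomere genes that passed, gave none. Alternatives changed the arrays fitted, normalization, signal filter, probe-set rule, eBayes settings, array weights, fold threshold, replicate block and each replicate; 2 that leave out the third arrays for counts without overlap were added after seeing the data. The main fit did not pair the samples by replicate number. Same-numbered arrays of 72 h had deviations from their group means that correlated at 0.02, -0.03 and -0.14. Groups this small cannot show whether same-numbered cultures were matched, and the labels do not say.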

Additional observations from a re-analysis of the deposited data

Results flagged for a closer look

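The exposure effect at 72 h differed by test from that at 48 h in 21 genes and from that at 24 h in 110 genes (limma, adjusted p under 0.05). With only the arrays compared the counts were 2 and 5, and without control replicate 3 they were 2 and 8. The re-analysis tag is on all 24 h arrays and only on the controls at 48 h and 72 h, and its part in the differences from 24 h was not tested.

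Against 48 h, the effect on log2 signal differed by 1.26 for Sdhc, 1.35 for H2bc12, 0.92 for Bod1, 0.81 for Eef1e1 (a subunit of the aminoacyl-tRNA synthetase complex), 0.55 for Tm2d3, -0.85 for Dexi, -0.59 for Got1 and -0.55 for Stx6. All of these had passed the test at 48 h and their groups overlapped at 72 h, except those of Eef1e1, whose change then was 0.19. The effect differed by -1.92 for Myh6, -0.68 for Svil, 2.29 for Fabp7 and 0.78 for Tnfrsf10b, in which the groups did not overlap at 72 h.

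Against 24 h, the effect differed by 1.17 for Sdhc, 1.25 for H2bc12, 1.02 for Bod1, 0.68 for Cbr1, 0.63 for Tm2d3, 0.76 for Srrd, 0.84 for Eef1e1, -1.01 for Dexi, -0.64 for Stx6 and -0.50 for Got1. It differed by -0.74 for Snora44, a small nucleolar RNA whose change was 1.07 at 24 h and 0.33 at 72 h. It differed by -1.25 for Popdc2, -0.97 for Myl3, -0.65 for Svil and 2.03 for Fabp7.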

How the results depend on the processing

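The 2 calls at 72 h were not stable. The count was 0 with only the arrays of 72 h, 0 with all probe sets and 0 without the third arrays, but 38 (10 up, 28 down) among genes whose signal reached the median and 30 (5 up, 25 down) with trend and robust eBayes. Leaving out 1 array gave 0 to 81 calls, with 81 without exposed replicate 1, 13 without exposed replicate 2, 1 without control replicate 2 and 0 without exposed replicate 3, control replicate 1 or control replicate 3. Ryr2 and Cacna1c kept their direction in every alternative run and each passed in 7 of 15, with changes of -0.92 to -0.68 and -0.87 to -0.61.

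The 21 genes whose effect differed from 48 h became 2 with only the arrays compared, 32 with cyclic loess (15 up, 17 down), 365 at or above the median signal, 89 with array weights, 350 with trend and robust eBayes, 4 without the third arrays and 2 to 31 with 1 array left out. The 110 against 24 h became 5, 66 with cyclic loess (38 up, 28 down), 640, 52 with all probe sets, 532 with trend and robust eBayes, 11 without the third arrays, 71 at a change of at least 1.5-fold and 8 to 78 with 1 array left out. The count of 0 genes called at 72 h and earlier in the same direction was 6 with the signal filter, 3 with trend and robust eBayes and 0 to 4 with 1 array left out.

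The replicate block gave 0 calls at 72 h (adjusted p = 0.125 for Ryr2 and Cacna1c), 2 against 48 h and 3 against 24 h. The labels do not say whether same-numbered cultures were matched, and why these counts were lower was not tested. Sall4 changed sign, from 0.07 to -0.13, when its probe sets were averaged. The medians of the gene lists moved by less than the SD of the list's mean between replicate arrays in 518 of 546 recomputed values, a wide tolerance where the third arrays stand apart. Several shrank by over 1.5 times without those arrays, such as neural progenitor (0.29 to 0.09), cardiac transcription factors (-0.19 to -0.05), endothelium (-0.35 to -0.17) and growth genes (-0.19 to -0.07), and epithelial adhesion turned from -0.06 to 0.04. The cause of these changes was not tested.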

Other observations

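Genes of cholesterol synthesis lay lower without overlap in 6 of 19 measured members and higher in 0, against 7.51% and 7.27% of all genes, with a median change of -0.08 at 72 h. Hsd17b7, an enzyme of the late steps of the pathway, had log2 signals of 7.59, 7.52 and 7.42 in exposed and 7.84, 7.74 and 7.82 in control embryoid bodies, a change of -0.29 (limma, adjusted p = 0.130). Genes of glycolysis and hypoxia lay lower in 5 of 31 members and higher in 0, with Bnip3, a mitophagy receptor, at -0.33 and the muscle enolase gene Eno3 at -0.29. Without the third arrays 23 of the 31 lay lower, against 17.3% of all genes.

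Of 26 measured retinoic acid genes, 4 (15.4%) lay higher and 5 (19.2%) lower without overlap, with a median of 0.00. Of 51 Wnt pathway genes 6 (11.8%) lay higher and 5 (9.80%) lower. The shares of all genes were 7.27% and 7.51%. Sfrp2, a Wnt antagonist, had 7.85, 7.65 and 8.31 in exposed and 7.41, 7.21 and 6.64 in control embryoid bodies, a change of 0.85 (adjusted p = 0.109). Without the third arrays the change of Sfrp2 was 0.44. Crabp1, which binds retinoic acid, had a change of 0.88 (adjusted p = 0.215), Cyp26b1, which degrades it, one of 0.44 (adjusted p = 0.174), its receptor gene Rarb one of -0.43, the Wnt antagonist gene Sfrp5 one of -0.56 and the laminin gene Lama1 one of 0.57 (adjusted p = 0.148).

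Control replicate 3 was the lowest of the 6 arrays in 71.2% of 73 small nucleolar RNAs, 57.7% of 26 replication histone genes and 56.3% of 64 cytosolic ribosomal protein genes, against 21.0% of all genes. The median changes of these lists at 72 h were 0.11, 0.15 and 0.03.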
